A study of Mus musculus with 2 samples.

Results

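The Notch pathway genes described here were 10 of the 32285 genes counted in single cells of GL261, a mouse glioma line from C57BL/6 animals that the labels call an astrocytoma. They were picked by symbol for their roles. Dll1, Dll3 and Jag1 are ligands, Notch1, Notch2 and Notch3 are receptors, and Hes1, Hes5, Hes6 and Hey1 belong to the target family. All 10 symbols were present in the count tables. GL261 cells grown attached to plastic in DMEM with 10% FBS (adherent) gave 1 library. Cells grown for 12 days as floating neurospheres, after EGF and FGF at 20 ng/ml each and B-27 were added to the same medium, gave the other library. Both were detached or broken up with trypsin, the neurospheres also by trituration, and frozen in DMSO before droplet capture. With 1 library per culture there was no replicate, so no difference between the cultures was tested and every interval below covers counting error only. The cultures differed in medium supplements, time and dissociation at once, and these cannot be told apart.

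In Notch signalling a ligand on the surface of a cell binds a receptor on its neighbour. The receptor is then cut by a metalloprotease and by gamma-secretase, and its freed intracellular domain enters the nucleus and joins RBPJ to switch on Hes and Hey genes, which code for transcriptional repressors. In the developing brain Hes1 and Hes5 hold progenitors back from differentiation, while cells that make Dll1 tend to be the ones that go on to differentiate.

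After cells with few genes were left out, 5051 adherent and 4276 neurosphere cells remained, with a median of 8260 and 13199 unique transcript molecules (UMIs) per cell. Kept cells held 46290996 and 64943938 UMIs outside mitochondrial and ribosomal genes, of which the 10 members made up 4570 and 28444. Levels are given in CPM, the UMIs of a gene per 1000000 UMIs of those totals. Because neurosphere cells were sequenced more deeply, shares of cells with a UMI were also computed after every cell was thinned to 5000 UMIs, which left out 587 adherent and 80 neurosphere cells that were shallower. There were 12 barcodes in both libraries, and 10 adherent and 11 neurosphere kept cells carried such a barcode. Those 10 adherent cells held 0 UMIs of Dll1, Dll3 and Hes5. Of markers for the labelled cell type, Nes, a progenitor filament gene, was at 104 (adherent) and 201 CPM (neurosphere) and Sox2, a progenitor transcription factor, was at 209 and 180 CPM. The astrocyte genes Aqp4 and Sox9 had 0 UMIs in both libraries and Gfap was at 0.648 and 0.416 CPM, while the glial gene Slc1a3 was at 370 and 80.5 CPM, and 8 of the 10 progenitor and glial markers passed 50 UMIs over both libraries. Of 8 immune markers only Cd68 passed, at 10.5 and 4.25 CPM, and of 6 endothelial and mural markers only Pecam1, at 1.32 and 3.20 CPM.

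Dll1, Dll3 and Hes5 were far higher in neurosphere cells, and Notch1, Notch2, Jag1, Hes1, Hes6 and Hey1 were within 2-fold between the cultures. Of the 9 members with at least 50 UMIs over both libraries, 3 were over 2-fold higher in neurospheres and 0 were over 2-fold lower. Among all 14654 genes that passed the same minimum, 21.7% were more than 2-fold higher in neurospheres and 11.7% more than 2-fold lower. Dll1, Dll3 and Hes5 had 14, 36 and 14 adherent UMIs and passed the minimum only through the neurosphere library. Notch3, the only member over 2-fold lower in CPM, fell short of it with 33 and 13 UMIs. Nothing is therefore read from the count of members against these shares. The median log2 ratio of the 9 members was 0.66, against 0.32 for all those genes. The member median was the value of Notch2, so the size of the large ratios had no weight in it. Dll1, Dll3 and Hes5 did bear on it by rank, since they stand above Notch2.

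**Figure D1:**
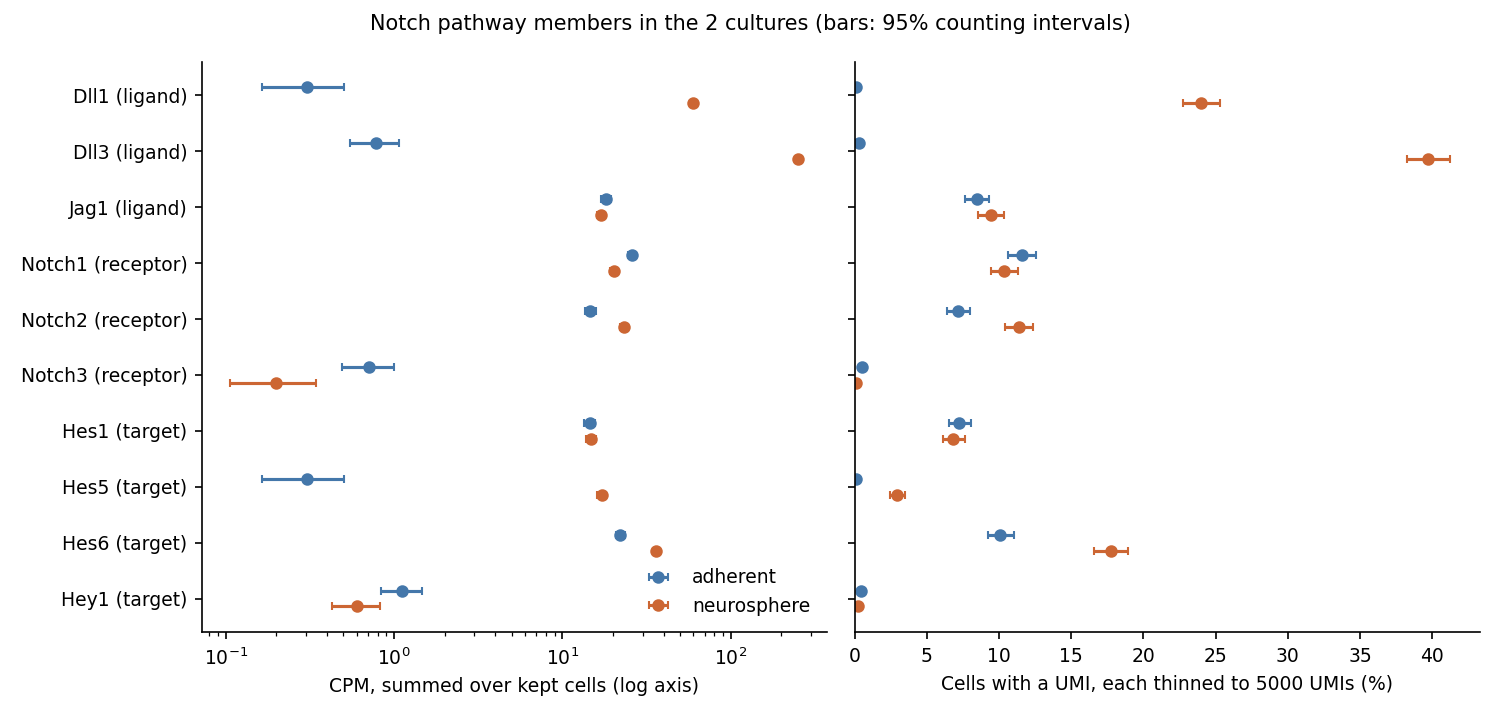
Level in CPM on a log axis (left) and percent of thinned cells with a UMI (right) for the 10 members in adherent (blue) and neurosphere (orange) cells, with bars for 95% counting intervals. The points of Dll1, Dll3 and Hes5 lie far apart on the left, those of Jag1, Notch1, Notch2, Hes1 and Hes6 lie close together, and on the right Hes5 stays at 2.96% of neurosphere cells where Dll3 reaches 39.7%.

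Dll3 (ENSMUSG00000003436, chr7:28293553-28302238, minus strand, mm10) is a divergent ligand that is mostly held inside the cell and is known as an inhibitor of Notch rather than an activator of its neighbours. The adherent library held 36 UMIs of it in 35 cells, and the neurosphere library 16202 UMIs in 2408 cells. These counts gave 0.778 CPM (95% Poisson interval 0.545 to 1.08) and 249 CPM (246 to 253). The log2 ratio was 8.33 (interval 7.86 to 8.84), a 321-fold difference, and only 71 of the 14654 genes had a higher one. In thinned cells the share with a UMI was 0.314% in adherent and 39.7% in neurosphere cells, against 0.693% and 56.3% before thinning.

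Dll1 (ENSMUSG00000014773, chr17:15367354-15376872, minus strand), the classical Delta ligand of neural progenitors, had 14 adherent and 3855 neurosphere UMIs. Its level was 0.302 CPM (0.165 to 0.507) and 59.4 CPM (57.5 to 61.3), a log2 ratio of 7.62 (6.87 to 8.49). After thinning, 0.0896% of the adherent and 24.0% of the neurosphere cells had a UMI, and before it 0.257% and 43.3%. Both Delta-family ligands were thus close to undetected in adherent cells, where no thinned cell held more than 1 UMI of either.

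Jag1 (chr2:137081456-137116644, minus strand), a ligand of the Jagged family, was present in both cultures. Its level was 18.2 CPM (843 UMIs) when cells were attached and 16.97 CPM (1102 UMIs) when they floated. The log2 ratio of -0.10 (-0.23 to 0.03) took the other sign, 0.12, with mitochondrial and ribosomal UMIs counted in the totals. Thinned shares were 8.47% and 9.44%, and unthinned shares 13.9% and 20.1%. All 24 adherent cells that held a ligand, a receptor and a target together held Jag1.

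Among the receptors, Notch1 (chr2:26457903-26516663, minus strand) had an adherent level of 26.0 CPM (24.5 to 27.5) and a neurosphere level of 20.1 CPM (19.1 to 21.3). Its log2 ratio was -0.37 (-0.48 to -0.25), and the thinned share of cells was 11.6% and 10.3%, against 19.4% and 21.9% unthinned. Notch2 (chr3:98013527-98150361, plus strand) was at 14.7 CPM (13.6 to 15.8) and 23.2 CPM (22.1 to 24.4), a log2 ratio of 0.66 (0.53 to 0.79). Its thinned share was 7.17% and 11.4%, and its unthinned share 12.0% and 26.0%. Notch1 was thus slightly lower and Notch2 higher in neurospheres than in adherent cells, each by less than 2-fold.

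Notch3 (chr17:32120820-32166852, minus strand), a receptor best known from vascular smooth muscle, had 33 adherent and 13 neurosphere UMIs. This is 0.713 and 0.2002 CPM, a log2 ratio of -1.83 (-2.88 to -0.87). The sum of 46 UMIs was under the minimum of 50 UMIs, so Notch3 entered no count of members past 2-fold, though its UMIs are in the member total and in the receptor role per cell. No kept cell held more than 1 UMI of it. The antisense gene Gm17276, which overlaps Notch3 on the opposite strand, had 84 and 24 UMIs. Notch1 overlaps 0610009E02Rik in the same way, with 64 and 92 UMIs for the latter. Whether strand was used in the counting is not given in the sources used here.

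Of the targets, Hes5 (ENSMUSG00000048001, chr4:154960923-154962371, plus strand), a repressor that is among the most direct readouts of Notch in neural progenitors, had 14 UMIs in 7 adherent cells, whereas 194 neurosphere cells held 1112. The levels were 0.302 CPM (0.165 to 0.507) and 17.1 CPM (16.1 to 18.2), a log2 ratio of 5.82 (5.07 to 6.70). A single adherent cell held 7 of the 14 UMIs. When adherent cells had to pass the higher minimum of genes used for neurosphere cells, the log2 ratio was 7.55. Thinned shares were 0.0672% and 2.96%, and unthinned shares 0.139% and 4.54%, so Hes5 was found in a small share of the neurosphere cells, where Dll3 and Dll1 were widespread. Gm20421, which lies on the opposite strand over the start of Hes5, had 0 UMIs in both libraries.

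The other targets differed less. Hes1 (chr16:30064384-30067796, plus strand), the repressor shared by most Notch-responsive tissues, barely differed, with 14.6 CPM (13.5 to 15.7) in the adherent and 14.8 CPM (13.9 to 15.8) in the neurosphere library. Its log2 ratio of 0.02 (-0.12 to 0.17) was -0.19 under TMM and -0.23 under median-of-ratios scaling, so no direction was given by these data. Hes6 (chr1:91411483-91414038, minus strand), which is known to oppose Hes1 and is made by differentiating neural cells, was at 22.1 CPM (20.7 to 23.5) and 36.1 CPM (34.6 to 37.6), a log2 ratio of 0.71 (0.60 to 0.82). Hey1 (chr3:8663359-8667256, minus strand), a repressor of the Hey family, had only 52 and 39 UMIs and a log2 ratio of -0.90 (-1.54 to -0.28), which was past 2-fold, at -1.12, under TMM scaling. After thinning, a Hes1 UMI was seen in 7.26% (adherent) and 6.84% (neurosphere) of cells and a Hes6 UMI in 10.1% and 17.7%, with unthinned shares of 11.3% and 13.6% for Hes1 and 17.6% and 39.0% for Hes6.

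The start of Hes5 is shown because it was the target that differed most between the cultures and because RBPJ acts on DNA through a short recognised word, GTGGGAA. RefSeq promoter windows of 300 bases, 250 before and 50 after a start, were at hand for 8 of the 10 members in 10 windows (build GRCm38.p6). Hes1 and Hey1 had no window, so they were not searched. GTGGGAA was searched on both strands and was held by 6.38% of all 32851 windows, and 0.256% held at least 2 matches. Of the 10 member windows, only that of Hes5 held it, 226 bases before the start on the minus strand and 83 bases before it on the plus strand. The 250 bases before the start, chr4:154960673-154960922 on the plus strand, are given with the matches in capitals, the one on the minus strand reading as its reverse complement.
Hes5: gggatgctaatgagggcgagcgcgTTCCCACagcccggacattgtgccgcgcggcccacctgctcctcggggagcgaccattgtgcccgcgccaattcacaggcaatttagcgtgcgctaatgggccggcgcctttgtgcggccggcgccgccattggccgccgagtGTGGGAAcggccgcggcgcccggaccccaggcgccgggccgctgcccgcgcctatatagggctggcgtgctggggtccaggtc

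The Delta-family ligands are classical targets of proneural factors, which bind E-boxes such as CAGCTG. This word, the same on both strands, was in 16.3% of all windows and in 5 of the 10 member windows, those of Dll1, Dll3, Jag1 and both of Hes6. The 30 bases around the match are given for the ligands that differed between the cultures, Dll1 at chr17:15377047-15377076 and Dll3 at chr7:28301775-28301804, both on the minus strand with the E-box in capitals. The match began 132 bases before the Dll1 start and 7 bases before the Dll3 start. These are the RefSeq starts of the windows, 15376932 for Dll1 and 28301785 for Dll3. They differ from the ends of the gene coordinates given above. CACNAG, the N-box bound by Hes proteins, was in 42.5% of all windows and in 5 of the 10 member windows, those of Dll1, Notch1, Notch2, Notch3 and Hes6, overlapping none of the words printed here. A match is a run of letters and not evidence of binding.
Dll1: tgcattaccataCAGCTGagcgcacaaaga
Dll3: tccggcatccagCAGCTGcgactcctgaga

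Some proneural factors were not detected. Neurog1, Neurog3, Neurod1 and Atoh1, bHLH factors that drive neuronal fates and are named here after their values were seen, had 0 UMIs in both libraries. A count of 0 allows up to 3 UMIs, or 0.0648 CPM (adherent) and 0.0462 CPM (neurosphere). Of the 11 genes on the proneural list, 3 passed the minimum of 50 UMIs and all 3 were over 2-fold higher in neurosphere cells, against 21.7% of all genes. The other 8 fell short of the minimum and Myt1, with 37 adherent and 335 neurosphere UMIs, passed it only through the library where it was higher, so this count is a description. Olig1 and Olig2, bHLH factors of the oligodendrocyte lineage, were at 141 and 69.8 CPM in attached cells and at 1292 and 465 CPM in neurospheres, with log2 ratios of 3.20 and 2.74. Myt1, a zinc finger factor that acts beside proneural proteins, was at 0.799 and 5.16 CPM, a log2 ratio of 2.69.

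The rest of the pathway was close to the background of all genes. Of 53 further genes for ligands, receptor processing, glycosylation, trafficking, nuclear partners and targets, 48 passed the minimum. There were 9 of these over 2-fold higher (18.8%, against 21.7% of all genes) and 5 over 2-fold lower (10.4%, against 11.7%), and their median log2 ratio was 0.22 against 0.32. Under TMM scaling the counts were 5 and 7, with 2354 and 2128 of all genes over 2-fold higher and lower in place of 3181 and 1711. Rbpj, the DNA-binding partner of every Notch receptor, had levels of 33.2 and 37.9 CPM in the adherent and the neurosphere library, a log2 ratio of 0.19 (0.09 to 0.28).

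The 5 genes over 2-fold lower in neurosphere cells were ligands, fringe enzymes and a target. Lfng and Mfng, fringe enzymes that add sugar to Notch receptors and so tune which ligand they answer to, had log2 ratios of -3.23 (-4.09 to -2.46) and -2.24 (-2.63 to -1.87). The adherent level of Lfng was 2.31 CPM and its neurosphere level 0.246 CPM. The third fringe, Rfng, was at 8.96 and 14.6 CPM and its log2 ratio was 0.70. The ligand genes Jag2 and Dlk2, the latter a non-canonical ligand, had log2 ratios of -1.31 and -2.55, and Hes7, best known from the segmentation clock, had -1.52. Mib2, a ubiquitin ligase of Notch ligands, and Maml3, a co-activator, had log2 ratios of -0.98 and -0.84 and were over 2-fold lower with TMM and with median-of-ratios scaling.

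Those over 2-fold higher were spread over the pathway. Dner, a non-canonical ligand of neurons, was at 2.05 and 14.2 CPM, a log2 ratio of 2.79. Adam10, the metalloprotease that makes the first cut in a bound receptor, and Ncstn, a subunit of gamma-secretase, had log2 ratios of 1.18 and 1.21. Of the 10 processing genes these 2 passed 2-fold (20.0%, against 21.7% of all genes) and 0 were over 2-fold lower (against 11.7%). Numb, an inhibitor of Notch that is passed on unequally in division, and Itch, a ubiquitin ligase that acts on Notch, had log2 ratios of 1.68 and 1.40. The co-activator genes Maml1, Maml2 and Ep300 had 1.14, 1.87 and 1.10, and the co-repressor gene Tle2 had 3.74, from 1.94 to 26.0 CPM. Adam10, Ncstn, Maml1 and Ep300 were under 2-fold with TMM scaling and with median-of-ratios scaling.

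Within neurosphere cells the members were spread in unlike ways. The ratio of variance to mean (Fano factor) of UMIs per thinned cell is 1 for counts scattered at random. It was 6.27 for Dll3, 2.16 for Dll1 and 7.74 for Hes5, and 1.99 for Hes1, while Jag1, Notch1, Notch2 and Hes6 were between 1.11 and 1.19. For Dll3, 678 of 4196 thinned cells (16.2%) had 3 or more UMIs and held 76.0% of its UMIs, with up to 37 in a cell, and 2529 cells had none. For Hes5, 43 cells (1.02%) held 75.0% of its UMIs, with up to 22 in a cell. Dll3 was thus unevenly spread over a large share of the cells, and Hes5 was concentrated in few. In adherent cells the Fano factor of Jag1, Notch1, Notch2, Hes1 and Hes6 was between 1.01 and 1.12. Since the UMIs of Dll3 and Hes5 came in clumps, Poisson intervals on their sums over cells are too narrow for the spread between cells.

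Roles were then combined per cell. In thinned adherent cells 8.78% had a UMI of a ligand, 18.1% of a receptor and 16.96% of a target, and 24 of 4464 cells (0.538%, binomial interval 0.345 to 0.799) had all 3 roles. In neurosphere cells the shares were 58.0%, 20.3% and 25.3%, and 162 of 4196 cells (3.86%, 3.30 to 4.49) had all 3 roles. The product of the 3 shares was 0.270% in adherent and 2.97% in neurosphere cells. When Jag1 was the only ligand counted, 46 neurosphere cells (1.10%) had all 3. The ligand share thus differed most between the cultures, and the receptor share differed little. The target share rested largely on Hes6, found in 744 of the 1061 neurosphere and 451 of the 757 adherent cells with a target. No share without Hes6 was computed. Without thinning, 18.1% of neurosphere cells had all 3 roles, so the share depends on depth. Conversely, 34.0% of neurosphere cells had a ligand and neither receptor nor target, against 5.53% of adherent cells, and 26.7% and 62.7% had no member at all.

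Pairs of members were compared by the ratio of cells that held both to the product of the 2 shares, where 1 is the value for genes scattered independently over cells. Dll3 and Hes5, the 2 genes that differed so much between the cultures, were found together in 49 of 4196 neurosphere cells against a product of 49.3, a ratio of 0.995 (0.737 to 1.31). The ratio was 1.03 when the product was taken within clusters and between 0.995 and 1.16 over the settings tried. Dll3 with Hes1, Notch1 and Notch2 gave 0.947, 1.03 and 0.966. No excess or lack of cells with both genes was detectable at this depth.

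Hes5 went with Notch1 and Hes1 instead, pairs singled out after their values were seen. Notch1 and Hes5 were together in 39 cells against a product of 12.8, a ratio of 3.04 (2.16 to 4.15), and 2.22 within clusters. Notch1 and Hes1 had a ratio of 2.43 (1.90 to 3.05), and 1.99 within clusters. Hes1 and Hes5 had the highest ratio of the 28 neurosphere pairs with a product of at least 5 cells, 3.89 (2.68 to 5.46), and 2.60 within clusters. Jag1 followed the same side, with 2.31 (1.52 to 3.35) for Hes5 and 1.74 (1.28 to 2.30) for Hes1. The size of these ratios moved with the thinning. Without it Notch1 had 2.19 with Hes5 and 1.58 with Hes1, and at 3000 UMIs per cell 3.20 and 1.79. With at least 2 UMIs asked of each gene they were 9.13 and 4.03, from only 7 and 3 cells against products of 0.766 and 0.744 cells. Without the cells over the 95th percentile of UMIs, where droplets with more than 1 cell would gather, these ratios were 2.89 and 2.24.

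Dll1 was found with Hes5 in 19 cells against a product of 29.8, a ratio of 0.638 (0.384 to 0.996), the lowest of the 28. The ratio was between 0.638 and 0.904 over the settings tried. Only at 0.638 did the counting interval lie below 1, by a small margin. It included 1 in every other setting tried, among them 76 cells against a product of 84.1 without thinning and 19 against 28.0 within clusters, so a lack of cells with both is not established. Dll1 and Hes1 gave 0.799 (0.602 to 1.04). Dll1 and Dll3 were together in 440 cells, a ratio of 1.10 (1.00 to 1.20). In adherent cells 10 pairs reached a product of 5 cells, with ratios between 0.866 and 1.70. Jag1 and Notch2 had the highest at 1.70 (1.24 to 2.26), and Notch1 and Hes1 had 1.34 (0.992 to 1.76), below the neurosphere value of that pair, though this difference was not tested.

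**Figure D2:**
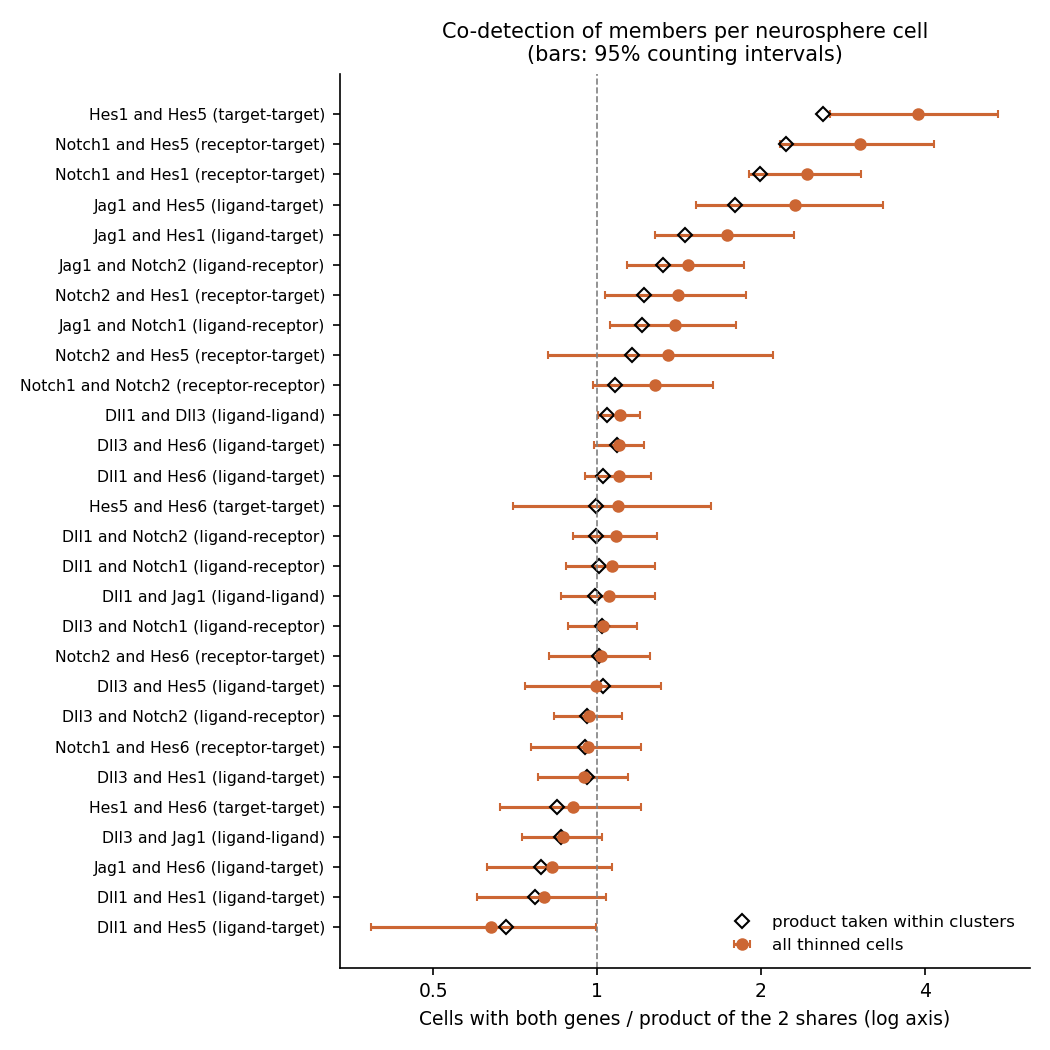
Cells with both genes over the product of the 2 shares (log axis) for the 28 pairs of members with a product of at least 5 thinned neurosphere cells; filled points with bars are all cells with 95% counting intervals and open diamonds take the product within clusters. Hes1 and Hes5 are highest at 3.89, the pairs of either with Notch1 or Jag1 stand between 1.74 and 3.04, Dll3 and Hes5 stand at 0.995, and Dll1 and Hes5 are lowest at 0.638.

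Levels of the members were also compared in CPM between cells with and without Hes5. Notch1 was at 21.5 CPM (19.5 to 23.6) in the 4072 thinned neurosphere cells without Hes5, 64.2 CPM (41.9 to 94.1) in 81 cells with 1 to 2 UMIs and 140 CPM (94.1 to 199) in 43 cells with 3 or more. Hes1 was at 16.9, 46.9 and 126 CPM over the same classes. Dll1 was at 73.4 CPM (69.7 to 77.2), 42.0 CPM and 23.3 CPM (7.55 to 54.3). Dll3 stayed at 265, 240 and 288 CPM, with overlapping intervals. Among the 43 cells, 22 had a UMI of Notch1, 17 of Hes1, 14 of Dll3 and 4 of Dll1.

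Cells were also grouped by UMIs of the ligands. Hes5 was at 23.2 CPM in the 3189 cells without Dll1 and 10.95 CPM in the 913 with 1 to 2 UMIs. There were 0 cells with a Hes5 UMI among the 94 with 3 or more Dll1 UMIs, which allows a share of up to 3.19%, above the 2.96% of all thinned neurosphere cells, so no lower share is shown. Hes5 was at 19.8, 20.6 and 19.8 CPM in cells with 0, 1 to 2 and 3 or more Dll3 UMIs. In cells with Dll3 and no Dll1 it was at 23.5 CPM, in cells with Dll1 and no Dll3 at 8.82 CPM, with both at 11.4 CPM and with neither at 23.0 CPM. Since 43 cells held 75.0% of the Hes5 UMIs, these levels rest on few cells, and the count of cells with both genes, given above, is the firmer measure.

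**Figure D3:**
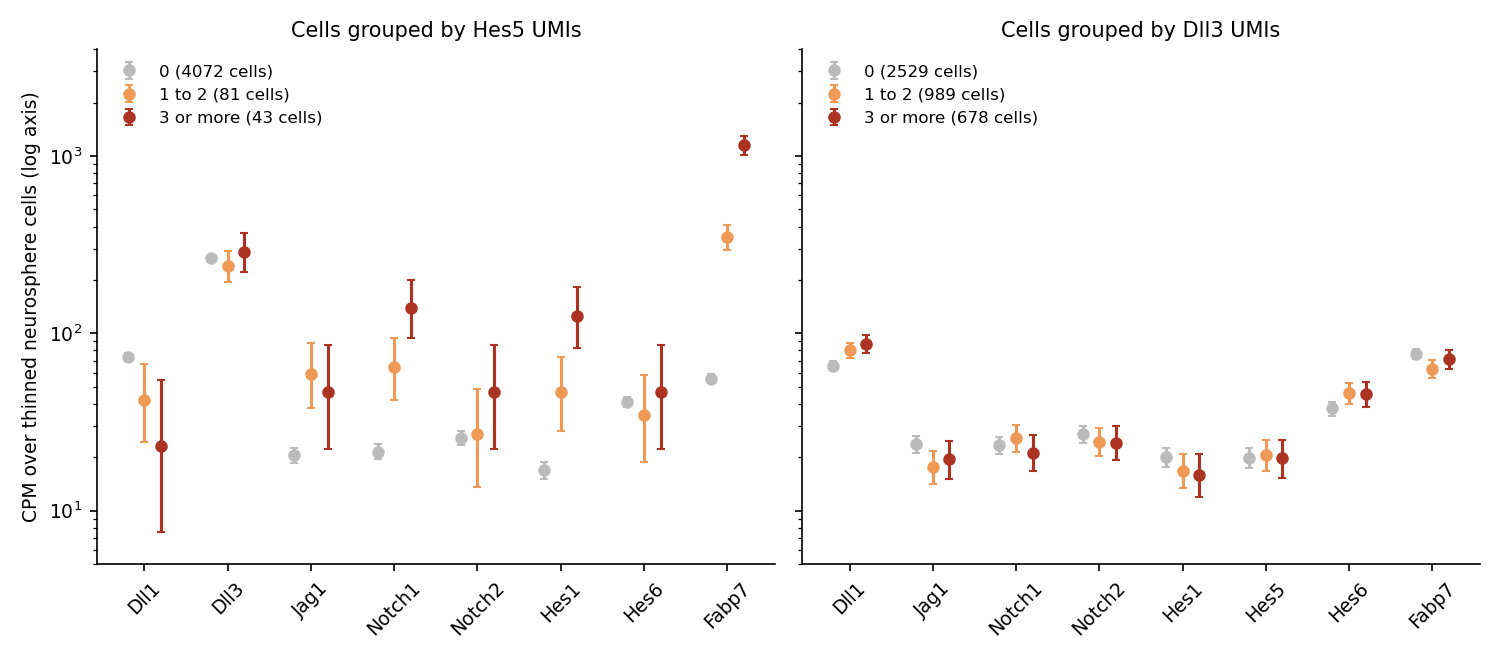
CPM (log axis) of members and Fabp7 in thinned neurosphere cells grouped by UMIs of Hes5 (left) or Dll3 (right), with 95% Poisson intervals. On the left Notch1, Hes1 and Fabp7 are higher and Dll1 lower in cells with more Hes5, while on the right the 3 classes lie closer together, with Dll1 going from 65.3 to 86.7 CPM and Hes6 from 37.6 to 45.4 CPM.

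The genes most like Hes5 over the 4196 thinned neurosphere cells, by Pearson's r of log counts among 8739 genes found in at least 5% of cells, were Sat1 (0.23), Fabp7 (0.23), Id3 (0.17), Notch1 (0.16) and Hes1 (0.15). Sat1 breaks down polyamines, Fabp7 is a fatty acid binding protein of radial glia, and Id3 inhibits bHLH factors. Fabp7 was at 55.6 CPM in cells without Hes5 and 1149 CPM (1010 to 1301) in the 43 cells with 3 or more UMIs, 21 of which held a Fabp7 UMI. The share of cells with Fabp7 was 12.7%, 51.9% and 48.8% with 0, 1 to 2 and 3 or more Hes5 UMIs. Over all thinned neurosphere cells Fabp7 had a Fano factor of 14.5 and up to 108 UMIs in a cell. Its interval is thus too narrow for the spread between cells. For Dll3 the 5 most alike were Ppp1r14b (0.21), Omg (0.20), Col1a1 (0.20), Eef1a1 (0.19) and Pantr1 (0.19). All of these correlations are weak, the cells share 1 library, and they serve only to name the genes. Between the cultures Fabp7 differed by a log2 ratio of 0.67, far less than Hes5.

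Each library was clustered with the members left out of the variable genes, which gave 10 adherent and 11 neurosphere clusters. Hes5 had its highest level, 81.2 CPM (72.9 to 90.2), in neurosphere cluster 7, led by Tnnt3, Tnni2 and Lpcat2, and the next, 51.6 CPM, in cluster 5, led by Mbp, Enpp2 and Lsamp, genes in part of oligodendrocytes. It had 0 UMIs in the 158 cells of cluster 9 and 2 UMIs each in clusters 8 and 10. Clusters 7 and 0 held 15 and 14 of the 43 cells with 3 or more Hes5 UMIs. Clusters 7 and 5 also had the highest Hes1 levels, 43.0 and 34.4 CPM. Even in cluster 7 only 14.7% of cells had a Hes5 UMI. These levels depend on how finely the cells are divided, since at a resolution of 0.8, with 7 neurosphere clusters, Hes5 was between 8.21 and 42.9 CPM.

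Dll1 was highest in cluster 1, led by Comp, Pdzd2 and Mucl2, at 181 CPM (169 to 193), and lowest in cluster 6 at 16.8 CPM. Cluster 1 held 53 of the 94 cells with 3 or more Dll1 UMIs, and it also had the highest levels of Dll3, 381 CPM, and Hes6, 69.2 CPM. Dll3 was found in every neurosphere cluster, from 96.3 CPM in cluster 6, where 51.4% of cells had a UMI, up to that of cluster 1. The Delta-family ligands thus peaked in another cluster than Hes5. Cluster 6 had the deepest cells, with a median of 23061 UMIs, and cluster 1 the shallowest, with 7663. Over the 11 clusters Spearman's rho of the level with the median UMI count was -0.77 for Dll1, -0.44 for Dll3 and -0.33 for Hes5, and the part of depth in these differences was not tested.

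Jag1, Notch1 and Notch2 varied together over clusters. In neurospheres Spearman's rho over 11 clusters was 0.94 for Jag1 and Notch1, 0.95 for Jag1 and Notch2 and 0.93 for Notch1 and Notch2, and in adherent cells over 10 clusters it was 0.85, 0.73 and 0.81. These clusters share a library and differ in depth, and all 3 genes were lower in the deeper neurosphere clusters (rho between -0.74 and -0.63). In adherent cells all 3 were highest in cluster 9, at 60.6, 53.0 and 45.4 CPM, which has 48 cells, a median of 2624 UMIs and 12.3% mitochondrial UMIs. Without cluster 9 the adherent values were 0.80, 0.63 and 0.73. Hes6 had 0 UMIs in that cluster.

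**Figure D4:**
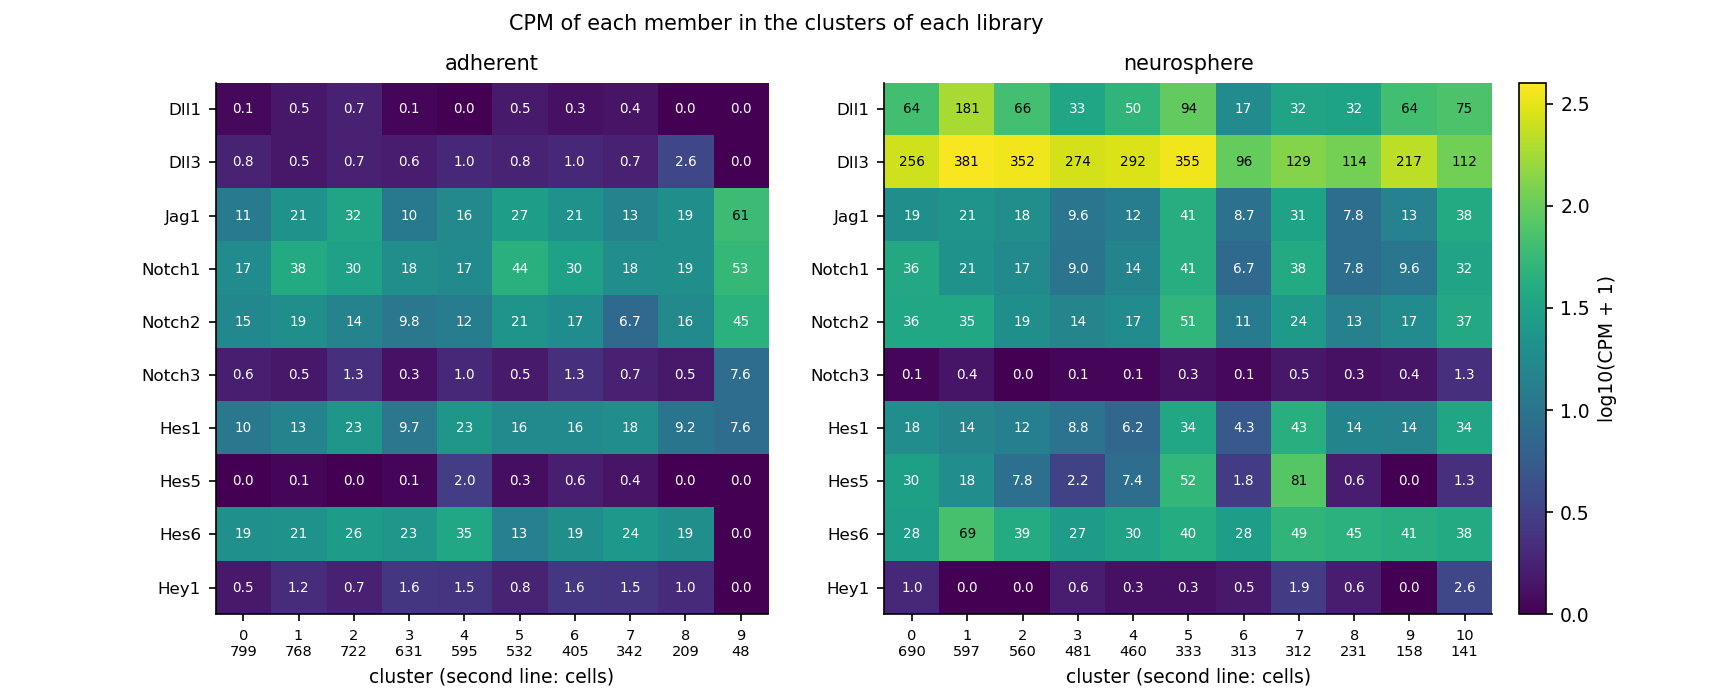
CPM of each member (printed in each field, coloured by log10 of CPM plus 1) in the 10 adherent and 11 neurosphere clusters, with the number of cells under each cluster. Dll1 and Dll3 are near 0 over the adherent clusters and present in every neurosphere cluster, whereas Hes5 goes from 0 to 81.2 CPM among neurosphere clusters.

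Dividing cells were set apart by UMIs of Mki67, Top2a, Cdk1, Ccnb1 and Ube2c, genes of mitosis. Dll1 was at 115 CPM (107 to 124) in the 1194 thinned neurosphere cells without such a UMI, 75.0 CPM in 952 cells with 1 to 2 and 45.9 CPM (41.8 to 50.2) in 2050 cells with 3 or more. Hes6 went from 56.6 to 43.3 and 30.5 CPM. Hes5 was at 26.3, 20.0 and 16.4 CPM, though the share of cells with it was 2.85%, 3.26% and 2.88%. Dll3 differed less, at 293, 270 and 245 CPM, with 39.4% and 40.4% of cells in the end classes. Jag1 was at 27.6, 23.1 and 17.3 CPM and Hes1 at 24.6, 19.7 and 14.5 CPM. Dll1, Hes6, Jag1 and Hes1 were thus lower, in level and in share of cells, with 3 or more mitosis-gene UMIs than with none. The shares were 32.2% against 18.6% for Dll1, 22.9% against 14.1% for Hes6, 12.0% against 7.71% for Jag1 and 8.04% against 5.80% for Hes1. These classes were not compared within clusters, and neurosphere cluster 1, highest in Dll1 and Hes6, had the lowest Top2a level, 16.1 CPM. In adherent cells Hes1 was likewise at 22.5, 18.8 and 14.4 CPM, with shares of 10.1%, 8.20% and 6.66%. Hes6 there was at 20.8, 25.5 and 20.3 CPM and Notch2 at 9.86, 11.8 and 17.1 CPM over the same classes.

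Free RNA in the droplets adds UMIs of abundant genes to cells that do not make them. A library of a single line has no cell type that should lack the members, so its part in the shares was not measured within neurospheres. In barcodes left out for few genes, Dll3 was at 327 CPM (282 to 377) in neurospheres, where kept cells had 249 CPM.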

How the data were processed

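Counts of UMIs per gene and cell were deposited by the authors as a matrix per library, made per the labels with Cell Ranger 7.0.1 against mm10 from 10x 3' v3 libraries. The annotation and the use of intronic reads are not given in the sources used here. Cells with at least 1000 UMIs and 1250 (adherent) or 2250 (neurosphere) genes were kept, and 13 mitochondrial and 101 ribosomal genes were left out. UMIs were summed over cells and divided by the remaining total. Log2 ratios have exact conditional intervals and shares exact Clopper-Pearson intervals, all at 95% and for counting error only. With 1 library per culture no test was run. Clusters came from Seurat 5.3.0 (2000 variable genes without the members, 17 or 18 components, resolution 1.0). TMM factors came from edgeR 4.0.16. Doublets were not called. Cells over the 95th percentile of UMIs were left out as an alternative. Coordinates are from GENCODE M21 and promoter sequences from RefSeq. Genes and lists were chosen with earlier results of these data known. Beside the 10 members, the genes named were every listed pathway or proneural gene over 2-fold different with at least 50 UMIs, Rbpj, the 5 genes most like Dll3 and Hes5, genes overlapping a member, and Fabp7. Rfng, Mib2, Maml3, the proneural genes at 0 UMIs, the cell type markers and the genes that lead clusters are named outside that rule, after their values were seen. A further gene that the rule names is not reported here. Scripts were tested on simulated data.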

Additional observations from a re-analysis of the deposited data

Results flagged for a closer look

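Barcodes left out for few genes held UMIs of members that kept adherent cells almost lacked, a signal in data outside the comparisons. The 675 neurosphere barcodes left out held 188 UMIs of Dll3, 74 of Dll1 and 10 of Hes5 among 574706 UMIs, which is 327, 129 and 17.4 CPM against 249, 59.4 and 17.1 CPM in kept cells. The 713 adherent barcodes left out held 1 UMI of Dll3, 0 of Dll1 and 1 of Hes5 among 392008. A median of 87.0% of the UMIs of the neurosphere barcodes left out, and 48.8% of the adherent ones, were mitochondrial. With all called cells included, the 3 members over 2-fold higher were still 3.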

How the results depend on the processing

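Under every alternative tried, 3 members were over 2-fold higher in neurospheres. The count of members over 2-fold lower was 1 in place of 0 under TMM scaling, median-of-ratios scaling and a mean over cells of CPM (Hey1 each time), and 1 with no minimum per gene (Notch3, 33 against 13 UMIs). The median log2 ratio of the members, 0.66, was 0.44 under TMM scaling, 0.41 under median-of-ratios scaling, 0.88 with mitochondrial and ribosomal genes in the total and 0.34 with no minimum per gene. The same scalings put the median of all genes at 0.11, 0.08 and 0.54 in place of 0.32. Other pathway genes over 2-fold higher, 9, were 5 under TMM scaling, 5 under median-of-ratios scaling and 15 with mitochondrial and ribosomal genes in the total, where 2354, 2261 and 4325 of all 14654 genes were over 2-fold higher in place of 3181. The share of neurosphere cells with all 3 roles, 3.86%, was 1.40% with cells thinned to 3000 UMIs and 18.1% without thinning. These scalings rescale a whole library, and thinning changes the UMIs per cell. Of 100 log2 ratios of single members under alternatives, 77 stayed within the counting interval, 23 did not, and none of a gene over 2-fold changed sign. The ratios of Dll1, Dll3 and Hes5 were between 5.53 and 7.98, 7.14 and 8.54, and 3.80 and 7.55, the lowest values each with 1 CPM added. Of 80 shares of cells, 33 left their interval. Leaving out the cells with a barcode in both libraries, an alternative chosen after seeing the data, gave log2 ratios of 8.32 for Dll3, 7.61 for Dll1 and 5.82 for Hes5. With 7 clusters at resolution 0.8, Hes5 in neurospheres was between 8.21 and 42.9 CPM and Dll1 between 24.6 and 182 CPM. No replicate could be left out, since each culture has 1 library.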
